A study of Rattus norvegicus with 50 samples.

Results

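The genes examined were 10 members of the PIWI and piRNA pathway, chosen by gene symbol: the PIWI proteins *Piwil1*, *Piwil2* and *Piwil4*, and the pathway factors *Mael*, *Ddx4*, *Tdrd1*, *Tdrd9*, *Mov10l1*, *Asz1* and *Pld6*. Of these 10 genes, 7 had a transcript cluster (the set of probes that measures 1 gene) among the 15049 clusters with 1 gene symbol, with 1 cluster each. *Tdrd9*, *Mov10l1* and *Pld6* were matched to no cluster by symbol, gene identifier or accession, and their levels were not analysed here. Gene expression was measured on Affymetrix Rat Clariom S arrays in the hippocampus and in peripheral blood mononuclear cells (PBMC) of the same 25 male Wistar rats at 3.5 months of age, which gave 50 arrays. The NW (normal-weight) group, 8 rats, had received oral vehicle during lactation (days 1 to 20) and then, for 11 weeks, a diet with 10% of its calories from fat. The MONW (metabolically obese, normal-weight) group, 8 rats, had received the same vehicle and then a diet with 60% of its calories from fat, matched in calories to NW. The MONW-Lep group, 9 rats, had received oral recombinant murine leptin over the same days of lactation. It then had the 60% fat diet, also under isocaloric conditions. MONW is thus a model made by diet in rats of 1 sex and strain, and the labels do not give the litter of each rat. All 3 groups were single-caged after weaning.

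PIWI proteins are the branch of the Argonaute family that binds piRNAs, small RNAs best known from germ cells. In the testis they silence transposable elements by cutting their transcripts and, in the nucleus, by directing DNA methylation to them. Helicases, Tudor-domain proteins and proteins on the mitochondrial surface assist in making piRNAs and in loading them. Outside the gonads these genes are in general weakly transcribed or silent. *Piwil1* was picked by the study on these same arrays, and the list was assembled with results for it known. Its p-values below are therefore no independent evidence. The study reported *Piwil1* as up-regulated in MONW in both tissues, on arrays and by RT-qPCR, and this change as mitigated by leptin. The RT-qPCR, a separate assay, was not part of the data used here.

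Each value is a log2 signal from RMA, the authors' summary of the probes of a cluster after background correction and quantile normalization. The same arrays carry 1153 features whose identifiers mark them as negative controls, and the 95th percentile of these on an array served as the level above which a gene was called above background there. That percentile ran from 7.96 to 8.58 in the hippocampus and from 8.59 to 9.51 in PBMC, and 21.0% to 34.4% of the clusters lay above it on a hippocampal array and 9.15% to 21.1% on a PBMC array. Of 7 hippocampal neuron markers, *Snap25*, *Syt1*, *Camk2a*, *Slc17a7* and *Rbfox3* were above it on 25 of 25 hippocampal arrays, *Neurod6* on 24 and *Prox1* on 6. Of 5 T cell markers, *Cd3e*, *Cd3d*, *Cd3g* and *Cd247* were above it on 25 of 25 PBMC arrays and *Trat1* on 0, and all 5 were above it on 0 hippocampal arrays. A marker of the tissue's own cells can thus lie below this level. MONW replicate 7 stood apart in the hippocampus. Its median correlation with the other hippocampal arrays was 0.978, the lowest of the 25, and its mean over 6 striatal markers, centred on all arrays, was 1.66 against -0.14 to 0.05 in the other 7 MONW rats, so results that rest on it are also given without it. The mean over 6 platelet markers, centred in the same way, varied widely in PBMC, from -2.27 to 1.09 in NW (median -0.08), from -1.98 to 1.06 in MONW (0.65) and from -2.73 to 0.86 in MONW-Lep (0.43).

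The promoters of *Piwil1* and *Piwil4*, the PIWI genes with a difference between groups in the results below, are shown as the 250 bases before the start of the gene. Both are from RefSeq on build GRCr8, written 5′ to 3′ on the strand of the gene, which is the minus strand for both. *Piwil1* lies at chr12:33606584-33606833 and *Piwil4* at chr8:19861221-19861470. The capitals mark matches on either strand of AACNG, the core of the motif bound by MYB factors, of which A-MYB (*Mybl1*) is known in mouse to drive piRNA pathway genes in spermatocytes.
Piwil1: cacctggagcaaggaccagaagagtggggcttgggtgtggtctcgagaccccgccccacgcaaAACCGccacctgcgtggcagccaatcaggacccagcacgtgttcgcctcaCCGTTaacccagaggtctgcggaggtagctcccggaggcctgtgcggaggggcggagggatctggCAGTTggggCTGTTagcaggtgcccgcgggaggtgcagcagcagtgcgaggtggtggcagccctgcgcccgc
Piwil4: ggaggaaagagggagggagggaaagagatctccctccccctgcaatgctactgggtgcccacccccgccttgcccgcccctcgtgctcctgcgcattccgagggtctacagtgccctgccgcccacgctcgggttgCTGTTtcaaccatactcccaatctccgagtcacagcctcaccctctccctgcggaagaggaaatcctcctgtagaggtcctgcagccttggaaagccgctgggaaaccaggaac
The window of *Piwil1* held 4 matches and that of *Piwil4* 1 match. At least 1 match was present in 75.2% of the 33469 promoter windows of the same length and at least 2 in 43.3%, with a median of 1. The presence of a match thus sets neither gene apart, and the share of windows with 4 matches was not counted. *Piwil1* had 17 CpG dinucleotides and a GC content of 68%, and *Piwil4* had 11 and 62.4%, where the median promoter had 5 CpG. Among the 8 members whose promoter was in the table, *Ddx4* had the most CpG (30) and *Pld6* the fewest (7). *Piwil2* and *Tdrd9* were not in the table.

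None of the 7 genes was above the 95th percentile of the negative controls on any of the 50 arrays. The count was also 0 at the 90th and at the 99th percentile, and against the highest of the 23 antigenomic background features (probes that match no rat sequence). In this the members were like most of the array, since 8797 of the 15049 clusters (58.5%) also reached the threshold on none of the 50 arrays. The differences between groups described below for these 7 genes are therefore differences in signal within the range of the negative controls. All differences are given on the log2 scale with no fold change. In whole tissue or mixed blood cells, fewer cells of a type and less RNA per cell cannot be told apart.

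The position of each gene within that range is given on its own, since probes of different genes are not compared in level. *Piwil1* carries piRNAs in meiotic and later male germ cells of the mouse. In the hippocampus its log2 signal ran from 5.81 to 6.77 (median 6.44), above the median negative control on 25 of 25 arrays. On the median hippocampal array 76.2% of the negative controls lay below it. In PBMC it ran from 5.62 to 6.75 (median 6.43) and lay above the median negative control on 17 of 25 arrays, with 52.9% of the negative controls below it. The signals were thus close in the tissues while the position was not, because the median negative control itself was at 5.08 to 5.45 in the hippocampus and at 6.003 to 6.633 in PBMC.

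*Piwil2*, the PIWI protein of earlier male germ cells, lay above the median negative control on 25 hippocampal arrays (5.60 to 6.36) and on 2 PBMC arrays (5.27 to 6.19). *Piwil4*, whose product acts in the nucleus of fetal germ cells in the mouse, had a signal of 2.44 to 3.33 in the hippocampus and of 2.83 to 3.94 in PBMC. Only 7.11% and 5.38% of the negative controls lay below it on the median array of each tissue. *Mael*, needed for transposon silencing, passed the median negative control on 1 hippocampal array, and *Asz1*, a scaffold protein of the mitochondrial surface, on 2. *Ddx4*, the germ cell RNA helicase Vasa, and *Tdrd1*, a Tudor protein that binds methylated PIWI proteins, passed it on 0 arrays of either tissue. The tissues were set side by side without a test, because the array medians did not overlap (6.87 to 6.90 in the hippocampus and 6.66 to 6.75 in PBMC) and the values do not show that both tissues were normalized together.

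**Figure D1:**
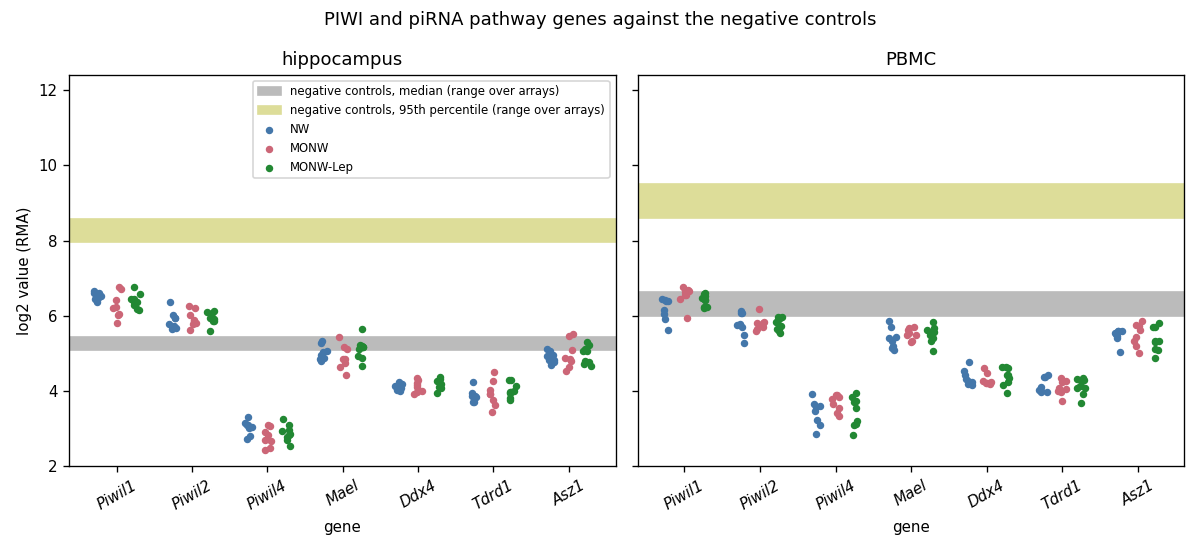
Log2 signal (y axis) of the 7 measured genes (x axis) on each array of the hippocampus (left) and PBMC (right), coloured by group; the bands give the range over arrays of the median and of the 95th percentile of the negative controls. All points lie below the upper band, and the median band sits higher in PBMC (6.003 to 6.633) than in the hippocampus (5.08 to 5.45).

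The first question was whether the high-fat diet moved the members in the hippocampus. *Piwil1* and *Piwil4* had lower signals in MONW than in NW, by 0.24 and 0.26, and the other 5 genes did not pass the test. The direction of the *Piwil1* difference is opposite to the one the study reported for the hippocampus. For *Piwil1* the NW arrays ran from 6.37 to 6.65 (median 6.49) and the MONW arrays from 5.81 to 6.76 (median 6.22). Of the 8 MONW arrays, 5 lay below every NW array and 2 above every NW array, so the ranges overlapped with MONW spread to both sides. The means were 6.51 ± 0.09 (SD, n = 8) and 6.27 ± 0.33 (SD, n = 8), with a difference of -0.24 (SE 0.11, 95% interval -0.46 to -0.02, limma p = 0.0357, exact two-sided permutation p = 0.0723). The limma test and the permutation test thus fell on different sides of the threshold of 0.05. The limma p was above the threshold when any of NW replicates 1, 4 or 5 (differences -0.23, -0.23 and -0.22) or MONW replicates 1, 2, 4 or 6 (-0.21, -0.23, -0.17 and -0.20) was left out. Without MONW replicate 7, the array that stood apart and the highest *Piwil1* value of its group, the difference was -0.31 and passed. In rats 1 to 5 the NW arrays ran from 6.47 to 6.65 and the MONW arrays from 5.81 to 6.41. In rats 6 to 8 NW gave 6.37, 6.47 and 6.45, and MONW gave 6.02, 6.76 and 6.71. This division by number was seen in the data and was not tested.

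For *Piwil4* the NW arrays ran from 2.72 to 3.33 (median 3.07) and the MONW arrays from 2.44 to 3.09 (median 2.77). No MONW array exceeded the NW range and 4 of 8 lay below it. The means were 3.04 ± 0.19 (SD, n = 8) and 2.77 ± 0.25 (SD, n = 8), with a difference of -0.26 (SE 0.10, 95% interval -0.48 to -0.05, limma p = 0.0173, exact permutation p = 0.0350). The sign and the call held when any single array of the 25 was left out (-0.31 to -0.22).

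These 2 calls of 7 stand against 3.08% of all clusters at an unadjusted p under 0.05 by limma in this comparison (463 of 15049), or 1.45% counting only those lower in MONW. *Piwil4* ranked 165th and *Piwil1* 330th by p. After Benjamini-Hochberg adjustment by limma 0 clusters were left, and the adjusted p of both genes was 0.999. The ranges of MONW and NW overlapped for all 7 members, as they did for all but 1 of the 15049 clusters (0.00664%). In PBMC the ranges of these groups also overlapped for all 7, and 0.0133% of the clusters had none.

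**Figure D2:**
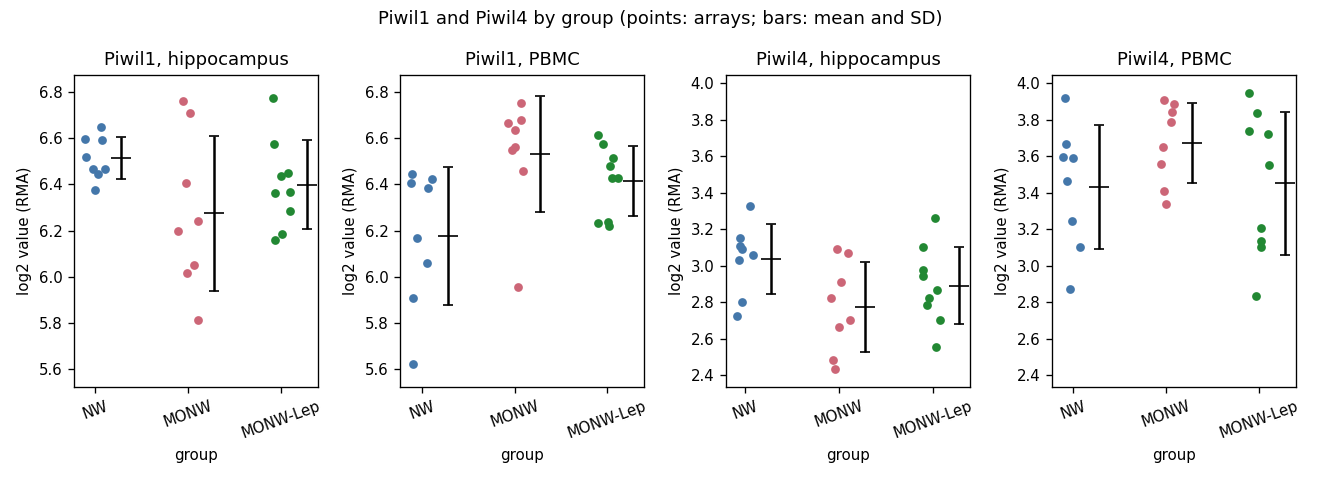
Log2 signal (y axis, the same range for both tissues of a gene) of *Piwil1* and *Piwil4* on each array by group (x axis) in the hippocampus and in PBMC; the bars are the mean and SD. The hippocampal *Piwil1* values of NW lie close together (SD 0.09) while those of MONW spread out (SD 0.33), and 7 of 8 MONW arrays lie above every NW array in PBMC.

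The spread of *Piwil1* between rats also differed between the groups. Its SD in the hippocampus was 0.09 in NW, 0.33 in MONW and 0.19 in MONW-Lep. The ratio of the MONW to the NW SD was 3.62, higher than in 99.6% of all clusters. The ratio was also above 1 for *Asz1* (2.47), *Tdrd1* (2.10), *Ddx4* (1.88), *Mael* (1.64) and *Piwil4* (1.28), and it was 0.94 for *Piwil2*, where the median over all clusters was 1.10 and 59.0% of them were above 1. In PBMC the ratio was 0.84 for *Piwil1* and above 1 only for *Asz1* (1.64) among the 7, with a median of 0.92 over all clusters. Without MONW replicate 7 the hippocampal ratio was 3.17 for *Piwil1*, 2.13 for *Asz1*, 1.64 for *Tdrd1* and 1.00 for *Piwil2*. MONW replicate 8, kept in these ratios, had a *Piwil1* signal close to that of replicate 7 (6.71 and 6.76). Its share of clusters above the negative controls was also close (21.2% and 21.0%), while its median correlation with the other arrays was 0.988. These ratios are a description with no test.

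With leptin during lactation, the hippocampal means lay between those of the other groups for *Piwil1* and *Piwil4*. *Piwil1* ran from 6.16 to 6.77 in MONW-Lep (median 6.37, mean 6.40 ± 0.19, SD, n = 9). It differed from NW by -0.11 (95% interval -0.33 to 0.10, exact permutation p = 0.146) and from MONW by 0.12 (-0.09 to 0.34, exact permutation p = 0.352). *Piwil4* ran from 2.56 to 3.26 (median 2.86, mean 2.89 ± 0.21, SD, n = 9) and differed from NW by -0.15 (-0.35 to 0.06) and from MONW by 0.12 (-0.09 to 0.33). These intervals hold 0, and for both genes they also hold the whole MONW to NW difference, so the data do not place MONW-Lep with either group.

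None of the 7 members passed the test in MONW-Lep versus NW, where 2.34% of all clusters did, nor in MONW-Lep versus MONW, where 3.1% did. In the latter comparison all 7 differences were above 0, from 0.0012 for *Piwil2* to 0.21 for *Mael*, with a median of 0.09, while 48.2% of all clusters were above 0, and *Piwil2* turned to -0.015 with the arrays quantile-normalized again and to -0.0018 with the array medians subtracted. *Mael* had a mean of 5.12 ± 0.27 (SD, n = 9) in MONW-Lep and 4.91 ± 0.32 (SD, n = 8) in MONW (limma p = 0.104, exact permutation p = 0.176). It passed by limma without MONW replicate 7 (0.28) or without MONW-Lep replicate 8 (0.26).

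In PBMC the high-fat diet comparison gave the opposite sign for *Piwil1*. The NW arrays ran from 5.62 to 6.45 (median 6.28) and the MONW arrays from 5.96 to 6.75 (median 6.60). Of the 8 MONW arrays 7 lay above every NW array, and replicate 6 (5.96) lay within the NW range. The means were 6.18 ± 0.30 (SD, n = 8) and 6.53 ± 0.25 (SD, n = 8), and the difference was 0.36 (SE 0.12, 95% interval 0.12 to 0.59, limma p = 0.00476, exact permutation p = 0.0216). The sign and the call held when any single array was left out (0.28 to 0.44). In rats 1 to 5 the NW arrays ran from 5.62 to 6.39 and the MONW arrays from 6.46 to 6.75. In rats 6 to 8 NW gave 6.41, 6.45 and 6.42, and MONW gave 5.96, 6.56 and 6.64. This division by number was seen in the data and was not tested, and leaving out 1 array cannot show it. *Piwil1* was the only one of the 7 to pass, where 3% of all clusters did (1.63% counting only those higher in MONW), and it ranked 28th by p, with an adjusted p of 1.00.

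The position of *Piwil1* among the negative controls moved with it. On the median array 46.3% of the negative controls lay below *Piwil1* in NW and 59.6% in MONW, while the median negative control was at 6.36 and 6.27. Expressed relative to the median negative control of its array, the *Piwil1* difference was 0.47 and passed. The platelet markers, whose median was higher in MONW, showed differences of 0.33 to 0.60 over the 6 genes, none past the test. With the platelet score as a covariate the *Piwil1* difference was 0.37 and passed. The *Piwil4* mean was 3.43 ± 0.34 for the NW rats and 3.67 ± 0.22 for MONW (SD, n = 8 each), a difference of 0.24 (95% interval -0.08 to 0.55) that did not pass (limma p = 0.130, exact permutation p = 0.116).

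In MONW-Lep, *Piwil1* ran from 6.22 to 6.61 in PBMC (median 6.43, mean 6.41 ± 0.15, SD, n = 9), and 4 of the 9 arrays lay above every NW array. It was 0.24 above NW (SE 0.11, 95% interval 0.01 to 0.47, limma p = 0.0439, exact permutation p = 0.0473), the only 1 of 7 members past the test where 4.75% of all clusters passed (2.36% as higher in MONW-Lep), with an adjusted p of 0.981. The call was lost when any of NW replicates 1 to 4 or MONW-Lep replicates 1, 3, 6, 7, 8 or 10 was left out, with differences from 0.16 (without NW replicate 3) to 0.24. It was also lost with array weights (difference 0.22) and with the replicate block (0.22), where limma's p rose above the threshold. Against MONW the difference was -0.12 (95% interval -0.35 to 0.11, exact permutation p = 0.256), so a lowering by leptin was not detectable with these arrays. None of the 7 members passed in MONW-Lep versus MONW, where 2.45% of all clusters did. *Piwil4* had a mean of 3.45 ± 0.39 (SD, n = 9) in MONW-Lep and was 0.22 below MONW (95% interval -0.53 to 0.09, exact permutation p = 0.178).

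**Figure D3:**
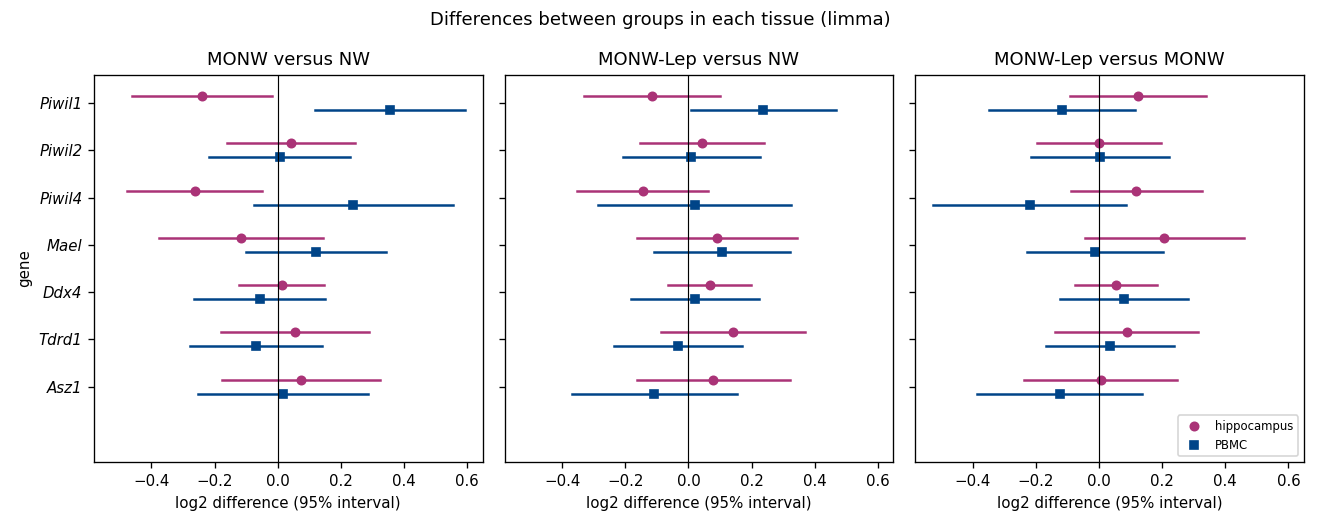
Log2 difference between groups (x axis, with its 95% interval from limma) for each of the 7 genes (y axis) in the hippocampus (circles) and PBMC (squares), 1 panel for each comparison. Intervals that leave out 0 belong to *Piwil1* and *Piwil4* in the hippocampus (-0.24 and -0.26) and *Piwil1* in PBMC (0.36) for MONW versus NW, and to *Piwil1* in PBMC (0.24) for MONW-Lep versus NW.

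The study read both tissues of the same rats, so whether a diet difference depended on the tissue could be tested directly on the hippocampus minus PBMC value of each animal. A shift between the tissues that all animals share cancels in this comparison. For *Piwil1*, hippocampus minus PBMC ran from -0.03 to 0.89 in NW (median 0.28), from -0.65 to 0.20 in MONW (median -0.35) and from -0.42 to 0.26 in MONW-Lep (median -0.06). It was above 0 in 7 of 8 NW rats, in 3 of 8 MONW rats and in 4 of 9 MONW-Lep rats. The mean and SD were 0.34 ± 0.34, -0.26 ± 0.33 and -0.02 ± 0.24 in these groups.

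The MONW minus NW difference of *Piwil1* was 0.59 lower in the hippocampus than in PBMC (-0.59, SE 0.15, 95% interval -0.90 to -0.29, limma p = 0.000409, exact permutation p = 0.00435). This was rank 2 by p of the 15049 clusters, of which 3.37% passed at an unadjusted p under 0.05 and 0 after adjustment (adjusted p = 1.00 for *Piwil1*). It held when any single animal was left out (-0.66 to -0.51). Hippocampus minus PBMC was 0.26 to 0.89 in NW rats 1 to 5 and -0.65 to -0.35 in MONW rats 1 to 5. In rats 6 to 8 it was -0.03 to 0.02 in NW and 0.06 to 0.20 in MONW, so the difference came from the lower-numbered rats. This division by number was seen in the data and was not tested, and leaving out 1 animal cannot show it. *Piwil4* passed as well, with a value of -0.50 (SE 0.18, 95% interval -0.88 to -0.13, limma p = 0.0107, exact permutation p = 0.0104, rank 92). Its hippocampus minus PBMC mean was -0.40 ± 0.31 for the NW rats, -0.90 ± 0.34 for MONW and -0.56 ± 0.48 for MONW-Lep (SD), and it held when any single animal was left out (-0.57 to -0.44). The other 5 genes gave -0.24 (*Mael*) to 0.12 (*Tdrd1*) and did not pass. *Mael* passed without MONW rat 7 (-0.34).

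For MONW-Lep versus NW, *Piwil1* again differed between the tissues (-0.35, SE 0.14, 95% interval -0.65 to -0.06, limma p = 0.0211, exact permutation p = 0.0250), the only 1 of the 7 where 3.34% of all clusters passed. This was lost without NW rat 3 (-0.27) or NW rat 4 (-0.30). For MONW-Lep versus MONW none of the 7 passed, where 2.62% of all clusters did. *Piwil1* gave 0.24 (95% interval -0.05 to 0.54) and *Piwil4* 0.34 (-0.03 to 0.70). Without MONW rat 7, *Piwil1* (0.31) and *Mael* (0.32) passed here. *Piwil4* passed when any of MONW rats 4 or 8 or MONW-Lep rats 1, 5, 6 or 10 was left out (0.38 to 0.41). These 3 comparisons share groups and are not independent of each other.

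**Figure D4:**
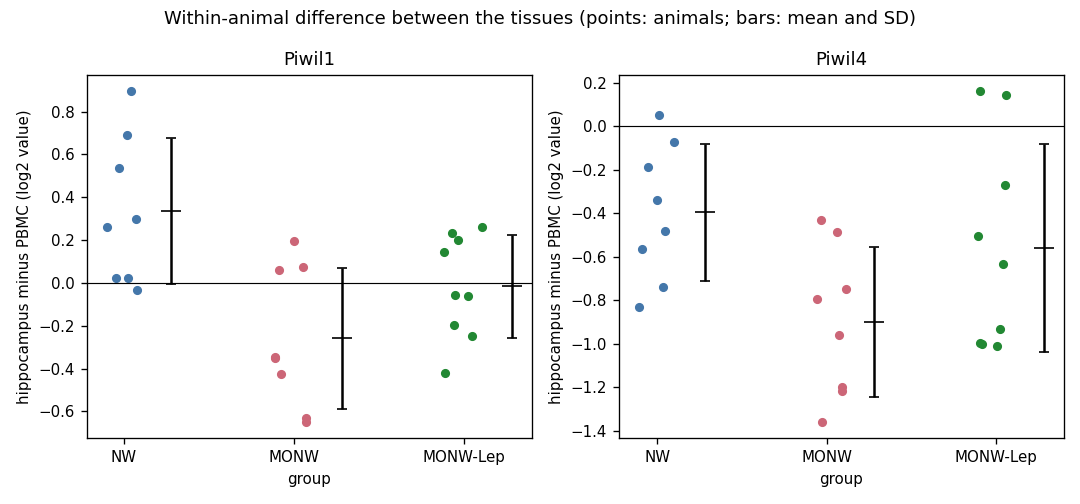
Hippocampus minus PBMC log2 signal (y axis) of *Piwil1* and *Piwil4* for each animal by group (x axis), with the mean and SD. The *Piwil1* means are 0.34 in NW, -0.26 in MONW and -0.02 in MONW-Lep, and the *Piwil4* means are -0.40, -0.90 and -0.56.

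The study treats PBMC as a possible mirror of the hippocampus, on the ground of changes between groups that both tissues shared. A separate question is whether the *Piwil1* signals of both tissues varied together between rats of a group. They were compared across the 25 rats after removal of the group means. That removal takes out changes between groups, so the correlation does not test the study's reading. Pearson's r was 0.146 (permutation p = 0.525) and Spearman's rho 0.012 (permutation p = 0.953). Without the 2 rats farthest from the median of the hippocampal values r was 0.119 (permutation p = 0.553). Within the groups r was -0.345 in NW, 0.397 in MONW and 0.034 in MONW-Lep (permutation p = 0.407, 0.365 and 0.935). A relation between rats was thus not detectable for this gene, which was the 1 relation tested. For the other 6 members r lay between -0.227 (*Piwil2*) and 0.155 (*Asz1*), as a description.

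The remaining members did not pass the test in any comparison. *Mael*, *Ddx4*, *Tdrd1* and *Asz1*, with *Piwil2*, differed between MONW and NW by -0.12 to 0.07 in the hippocampus and by -0.07 to 0.12 in PBMC, with limma p from 0.278 to 0.954. In MONW-Lep versus NW they differed by 0.04 to 0.14 in the hippocampus and by -0.11 to 0.11 in PBMC, with limma p from 0.214 to 0.930. For *Ddx4*, the 95% intervals for MONW versus NW were -0.12 to 0.15 in the hippocampus and -0.27 to 0.15 in PBMC. For *Tdrd1* they were -0.18 to 0.29 and -0.28 to 0.14, and for *Asz1* -0.18 to 0.32 and -0.25 to 0.29. A p above the threshold does not show that these genes were unchanged.

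Over the 25 hippocampal arrays, after removal of group means, *Tdrd1* was the member whose signal ran most like that of *Piwil1* (Pearson r 0.650, rank 18 of 15048 clusters). *Asz1* (0.461) and *Mael* (0.392) followed, and *Piwil4* ran against it (-0.319). Without MONW replicate 7, the r with *Piwil1* was 0.524 for *Tdrd1*, 0.300 for *Asz1* and 0.220 for *Mael*. In PBMC the members' r with *Piwil1* lay between -0.184 (*Piwil2*) and 0.184 (*Piwil4*). Among all clusters the highest r in the hippocampus belonged to *Ccdc61* (0.776), *Ttf2* (0.719), *Abcg5* (0.708), *Fut7* (0.701) and *Evx1* (0.694), and the lowest to *Eif4g3* (-0.779), *Clhc1* (-0.768) and *Dclre1c* (-0.763). In PBMC the highest belonged to *Ttc23* (0.774), *Defb29* (0.767), *Kcnj9* (0.767), *Opalin* (0.757) and *Ces1c* (0.747), and the lowest to *Mastl* (-0.724), *Vom2r9* (-0.723) and *Or1j13b* (-0.709). Of these 16 genes, 15 were above the 95th percentile of the negative controls on 0 of 25 arrays of that tissue, the exception being the translation initiation factor *Eif4g3* (25 of 25). These correlations are over arrays that share their normalization, and they are a description.

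The wider pathway was followed in a list of 35 partner genes, 26 of them measured. Of these, 19 of 26 were above the negative controls on no hippocampal array, where 64.3% of all clusters were on none. In PBMC 22 of 26 were above them on no array, where 77.0% of all clusters were on none. Such a gene can still lie well above the median negative control. *Tdrkh*, on 0 hippocampal arrays above the threshold, had an NW mean of 7.73 there. The median negative control was at 5.37 on the median NW array. *Hsp90aa1*, a chaperone that helps load small RNAs, was above them on 25 hippocampal and 24 PBMC arrays. *Prmt5*, the methyltransferase that modifies PIWI proteins, was above them on 25 hippocampal and 11 PBMC arrays, and *Mov10*, a helicase related to *Mov10l1*, on 0 and 25. *Akap1*, an anchoring protein of the mitochondrial surface, was above them on 22 hippocampal arrays, *Snd1*, a Tudor nuclease, on 19 PBMC arrays, and *Tdrd7*, a Tudor protein, on 15 hippocampal arrays. All 6 of these genes also have roles outside the germ line.

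Few partners passed the test by limma, and 0 of them after adjustment. The p-values given for list genes are exact two-sided permutation p-values except where limma is named. The counts, from 0 to 2 of 26 per comparison, are given beside the share of all clusters that passed, and nothing is read from them about the list. In MONW versus NW, 1 of 26 passed in the hippocampus, as higher (*Akap1*, 0.14, SE 0.06, exact p = 0.00870), where 3.08% of all clusters passed, with a median of -0.0026 over the list. In PBMC 2 of 26 passed, both as lower, where 3% of all clusters passed, with a median of -0.03. The latter were *Hsp90aa1* (-0.32, SE 0.14, exact p = 0.0241) and *Gtsf2*, a gametocyte-specific factor (-0.33, SE 0.12, exact p = 0.0535). In MONW-Lep versus NW, 1 of 26 passed in each tissue, where 2.34% of all clusters passed in the hippocampus and 4.75% in PBMC. *Nanos2*, an RNA-binding protein of male germ cells, was lower in the hippocampus (-0.24, SE 0.11, exact p = 0.0592), and *Akap1* was higher in PBMC (0.29, SE 0.08, exact p = 0.00461), there on 0 arrays above the negative controls. In MONW-Lep versus MONW, *Gtsf2* (0.33, SE 0.11, exact p = 0.0109) and the Tudor gene *Tdrd5* (0.20, SE 0.09, exact p = 0.0148) were higher in the hippocampus, which is 2 of 26 where 3.1% of all clusters passed, and 0 of 26 passed in PBMC. For *Gtsf2* in PBMC and *Nanos2* limma passed (p = 0.0145 and 0.0416) and the exact test did not. *Akap1* and *Hsp90aa1* in MONW versus NW were the only ones of these calls in a tissue where the gene was above the negative controls on most arrays.

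The related Argonaute and microRNA genes gave no call. Of 13 genes 7 were measured, and 0 of 7 passed in any of the 6 comparisons by limma at an unadjusted p under 0.05, with medians from -0.04 to 0.02. *Tnrc6b*, a partner of Argonaute proteins in repression, was above the negative controls on all 50 arrays, and *Ago1* on 19 hippocampal arrays and 1 PBMC array. Of 36 germ cell genes 32 were measured, and 26 of 32 were above the negative controls on no hippocampal array and 30 of 32 on no PBMC array, beside the 64.3% and 77.0% of all clusters. The protamine genes *Prm1* and *Prm3* were above them on 25 of 25 hippocampal arrays. Whether this signal comes from protamine transcripts was not tested. By limma at an unadjusted p under 0.05, 1 of 32 germ cell genes passed in each of 3 comparisons and 0 of 32 in the other 3, and 0 passed after adjustment. In the hippocampus for MONW versus NW, where 3.08% of all clusters passed, it was the meiotic cohesin *Stag3* (0.31, SE 0.14, limma p = 0.0373), which did not pass the exact permutation test (p = 0.108). In the hippocampus for MONW-Lep versus NW, where 2.34% passed, it was the synaptonemal gene *Sycp2* (0.27, SE 0.11, limma p = 0.0215), which did not pass the exact permutation test either (p = 0.0548). In PBMC for MONW-Lep versus NW, where 4.75% passed, it was the GDNF receptor gene *Gfra1*, as lower (-0.34, SE 0.14, limma p = 0.0196, exact p = 0.0265). *Stag3* and *Sycp2* were above the negative controls on 0 arrays of the hippocampus, and *Gfra1* on 0 arrays of PBMC.

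**Figure D5:**
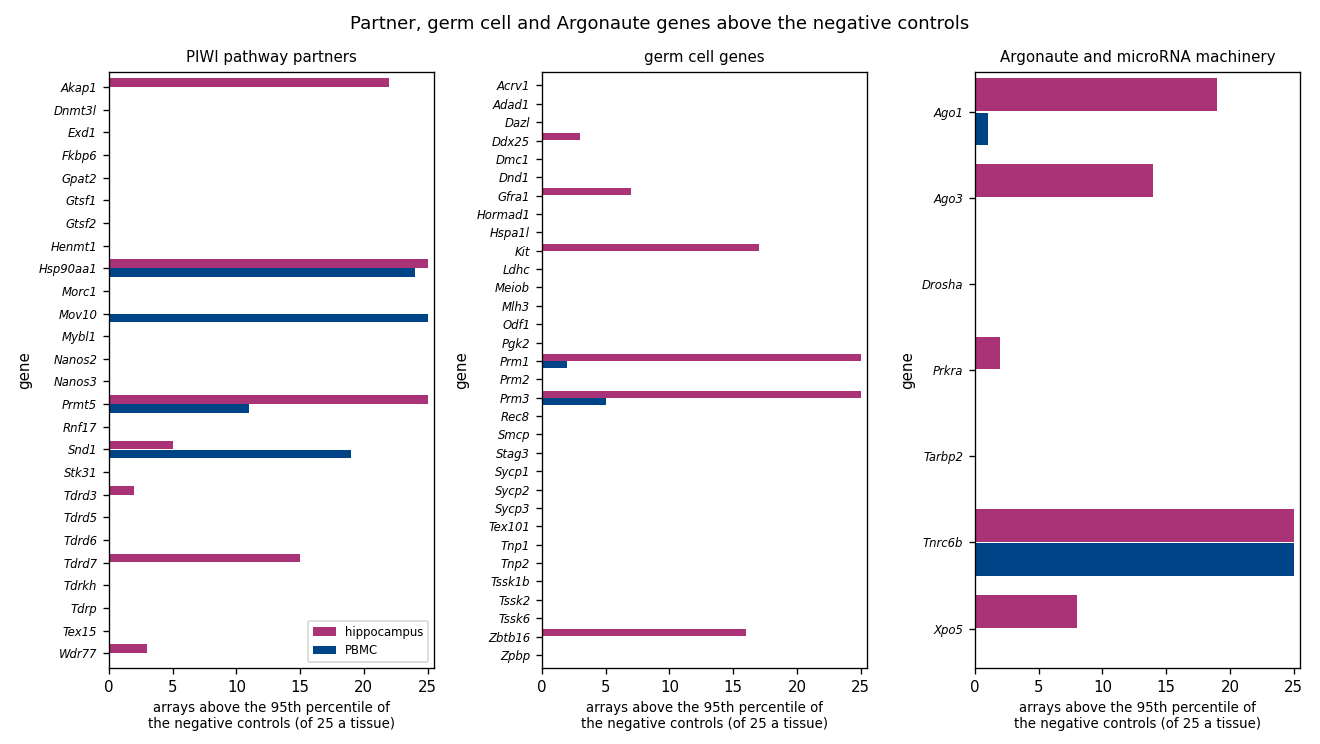
Number of arrays (x axis, of 25 in each tissue) on which each measured partner gene, germ cell gene and Argonaute or microRNA gene (y axis) lay above the 95th percentile of the negative controls. Most genes have no bar in either tissue; *Tnrc6b* reaches 25 arrays in both, *Hsp90aa1* 25 and 24, *Mov10* 25 in PBMC, and *Prmt5*, *Prm1* and *Prm3* 25 in the hippocampus.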

How the data were processed

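The values deposited by the authors are log2 signals per transcript cluster made with RMA, which removes any shift shared by all genes. The submitters' processing notes also name R 4.0.4 and limma; annotation version and genome build are not given in the sources used here. Of 24871 features 1683 were controls; the 15049 clusters with 1 gene symbol in the platform annotation were tested and 8139 without one were not. No 2 arrays of a tissue held identical values. The number of arrays limits the precision.

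The 25 arrays of a tissue entered 1 model with all 3 groups and no covariates (lmFit, then eBayes; limma 3.58.1, R 4.3.3). Following the study's methods, a cluster passed at an unadjusted p under 0.05, with Benjamini-Hochberg adjustment over the 15049 clusters. Exact permutation tests used all 12870 regroupings (8 against 8 rats) or 24310 (9 against 8). Tissue dependence was tested with limma on hippocampus minus PBMC per animal, matched by the number in the labels; as a check, 59 clusters correlated over 0.6 between the tissues across rats after removal of group means, against 17 under -0.6. The correlation of *Piwil1* used 100000 permutations within groups. The scripts were tested on simulated data.

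The members and lists were chosen with earlier results of these data known. All 10 members were to be named, with list genes past the threshold or above the negative controls and, as most like *Piwil1*, the 5 clusters with the highest and 3 with the lowest r. Levels of different clusters were not ranked. Matches of AACNG may overlap other motifs. Alternatives were other scalings, array weights, a replicate block, other background thresholds and leaving out arrays. Chosen after seeing the data were the platelet covariate, the antigenomic threshold, leaving out single animals and the exact test for tissue dependence, and spread and correlations without MONW replicate 7.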

Additional observations from a re-analysis of the deposited data

Results flagged for a closer look

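In 4 of the 42 groups of member values 1 array lay far from the others, where chance gives about 1 in 20 groups. *Piwil1* was lowest on MONW replicate 6 in PBMC (5.96). *Piwil2* was highest on MONW replicate 1 in PBMC (6.19). *Tdrd1* was highest on NW replicate 6 in the hippocampus (4.23). *Asz1* was lowest on NW replicate 3 in PBMC (5.05).

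The groups differed otherwise in the hippocampus than in PBMC, by limma on the within-animal differences, for *Piwil1* in MONW versus NW (-0.59), for *Piwil4* in MONW versus NW (-0.50) and for *Piwil1* in MONW-Lep versus NW (-0.35). These 3 results are described in the report, 0 clusters passed after adjustment in either comparison, and both genes lay within the range of the negative controls on all 50 arrays.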

How the results depend on the processing

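The calls of *Piwil1* in PBMC (MONW versus NW, 0.34 to 0.47 under 10 alternatives) and *Piwil4* in the hippocampus (-0.28 to -0.25 under 10), and those of both genes for hippocampus minus PBMC in MONW versus NW (*Piwil1* -0.70 to -0.59, *Piwil4* -0.61 to -0.50, under 4) kept their sign and their side of the threshold in these alternatives, as did *Piwil1* for hippocampus minus PBMC in MONW-Lep versus NW (-0.41 to -0.35 under 4). The calls of *Piwil1* in the hippocampus for MONW versus NW and in PBMC for MONW-Lep versus NW did not. Subtracting the median negative control of each array left 1 member past in the hippocampus for MONW versus NW (*Piwil1*, -0.23, no longer passed) and gave 2 in PBMC (*Piwil4* 0.35). The exact permutation test in place of limma also left 1 in the hippocampus. Array weights gave 2 in the hippocampus for MONW-Lep versus MONW (*Piwil1* 0.20, *Mael* 0.26) and 0 in PBMC for MONW-Lep versus NW (*Piwil1* 0.22, no longer past). Without MONW replicate 7 the count for MONW-Lep versus MONW was 1 in the hippocampus (*Mael*) and 2 for hippocampus minus PBMC (*Piwil1* 0.31, *Mael* 0.32). Correlations of same-numbered arrays across groups ran from -0.43 to 0.45, with no comparison to differently numbered arrays. Whether replicate numbers pair rats across groups was therefore not settled. With the replicate block the count was 1 in PBMC for MONW-Lep versus MONW (*Piwil4* -0.28) and 0 for MONW-Lep versus NW (*Piwil1* 0.22, no longer past). Against the median negative control, 4 members were above on at least 1 hippocampal array and 2 on at least 1 PBMC array. The correlation of *Piwil1* between tissues became -0.082 (permutation p = 0.725) relative to the median negative control. Requiring clusters above the negative controls on at least 8 arrays left 0 of the 7 members, so that alternative gave no value, and the alternatives of the untested tissue difference were not run. The cause of these changes was not tested.

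Leaving out 1 array at a time, the count of members past the threshold was 1 to 2 in the hippocampus for MONW versus NW, 0 to 1 for MONW-Lep versus MONW there and for MONW-Lep versus NW in PBMC, and 2 to 3, 0 to 1 and 0 to 2 for hippocampus minus PBMC in MONW versus NW, MONW-Lep versus NW and MONW-Lep versus MONW. Small differences that did not pass turned their sign. With negative control medians subtracted they were, in PBMC, *Ddx4* 0.055 and *Tdrd1* 0.044 (MONW versus NW), *Tdrd1* 0.052 (MONW-Lep versus NW) and *Piwil2* -0.025 (MONW-Lep versus MONW), and for hippocampus minus PBMC, *Piwil2* -0.069, *Ddx4* -0.034 and *Asz1* -0.048 (MONW versus NW), *Piwil2* -0.029 and *Ddx4* -0.018 (MONW-Lep versus NW) and *Piwil2* 0.039 and *Ddx4* 0.016 (MONW-Lep versus MONW). *Piwil2* turned with quantile normalization (-0.0081 in PBMC for MONW versus NW, -0.015 in the hippocampus for MONW-Lep versus MONW), array medians (-0.00094 and -0.0018) and, for the latter, the replicate block (-0.0016). In PBMC *Mael* turned in MONW-Lep versus MONW with array weights (0.018) and the block (0.0091), *Piwil4* in MONW-Lep versus NW with both (-0.067 and -0.042), and *Piwil2* in MONW-Lep versus MONW with the platelet covariate (-0.0079). In the hippocampus *Tdrd1* (-0.023) and *Asz1* (-0.032) turned in MONW versus NW with array weights, and *Ddx4* (-0.010), *Tdrd1* (-0.029) and *Asz1* (-0.0030) without MONW replicate 7. Without that rat *Piwil2* (0.0075) and *Ddx4* (0.0093) turned for hippocampus minus PBMC in MONW-Lep versus MONW. With single arrays left out the ranges that crossed 0 were, for MONW versus NW in the hippocampus, *Piwil2* -0.0056 to 0.11, *Ddx4* -0.017 to 0.042, *Tdrd1* -0.029 to 0.12, *Asz1* -0.003 to 0.14. For MONW-Lep versus MONW in the hippocampus, *Piwil2* -0.044 to 0.048, *Asz1* -0.058 to 0.082. For MONW versus NW in PBMC, *Piwil2* -0.067 to 0.054, *Ddx4* -0.10 to 0.000698, *Asz1* -0.043 to 0.087. For MONW-Lep versus NW in PBMC, *Piwil2* -0.064 to 0.057, *Piwil4* -0.060 to 0.097, *Ddx4* -0.01 to 0.080, *Tdrd1* -0.060 to 0.022. For MONW-Lep versus MONW in PBMC, *Piwil2* -0.023 to 0.060, *Mael* -0.053 to 0.042, *Tdrd1* -0.014 to 0.091. For MONW versus NW for hippocampus minus PBMC, *Piwil2* -0.042 to 0.11, *Ddx4* -0.000657 to 0.12. For MONW-Lep versus NW for hippocampus minus PBMC, *Piwil2* -0.044 to 0.11, *Mael* -0.096 to 0.049, *Ddx4* -0.031 to 0.088. For MONW-Lep versus MONW for hippocampus minus PBMC, *Piwil2* -0.077 to 0.059, *Ddx4* -0.10 to 0.018, *Tdrd1* -0.055 to 0.14.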
